A study of Mus musculus with 2 samples.

Results

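The mouse genes whose symbols begin with Psm followed by a letter from a to g and a number were taken as the proteasome genes, and their FPKM were summed over protein-coding RefSeq transcripts. The name rule found 50 of the 20250 genes measured. Of these, 48 encode proteasome subunits, assembly chaperones, activators or the inhibitor. The other members were *Psmc3ip*, a cofactor of homologous recombination, and *Psme3ip1*, a binding partner of *Psme3*, which carry the name but are not subunits. FPKM counts fragments per kilobase of a transcript and divides by the mapped fragments of the library, and so is a level per length that can be set side by side between genes. A gene passed the filter on low values when the mean FPKM of the libraries was at least 1. This left 48 of 50 members and 10131 genes in all. The members left out were *Psma8*, a testis form of an alpha subunit, and *Psmb11*, the catalytic subunit of thymic cortical epithelium, and both were listed at 0 in both libraries.

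RNA-seq was measured in 1 library of *Ebf1* -/- pre-pro-B cells and 1 library of *Rag2* -/- pro-B cells, both of C57BL/6 background. The pre-pro-B cells were derived from livers of female embryos and were cultured on OP-9 stromal cells with Il-7 at 5 ng/mL, Scf at 10 ng/mL and Flt3l at 10 ng/mL. The pro-B cells were derived from bone marrow of adult males and were cultured on OP-9 stromal cells with Il-7 at 5 ng/mL. Cell type therefore cannot be told apart from genotype, donor sex, age, tissue or cytokines, and with 1 library per cell type no difference has a replicate check or a test. Both libraries were made strand-specifically from RNA depleted of ribosomal RNA, with an RNA integrity number of 9.9, and were sequenced to about 90000000 reads of 97 bp.

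The proteasome degrades proteins that carry ubiquitin chains. Its barrel-shaped core particle is built from outer rings of alpha subunits and inner rings of beta subunits, some of which are proteases, and a regulatory particle of ATPases and non-ATPase subunits binds, unfolds and feeds in the substrate. In cells of the immune system, and in other cells after exposure to interferon, the catalytic subunits *Psmb5*, *Psmb6* and *Psmb7* can be replaced by *Psmb8*, *Psmb9* and *Psmb10* to form the immunoproteasome, which makes peptides for MHC class I.

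The promoter windows of 3 members are shown because *Psmb9* is an immunoproteasome gene beside *Tap1*, and *Psme1* and *Psmg4* were the activator and the chaperone past 1.5-fold in the values given further on. Each window of 300 bases runs from 250 bases before the gene's start to 50 bases from it on, read 5′ to 3′ on the strand of the gene, from RefSeq on GRCm38.p6. Capitals mark a match to the interferon response core GAAANNGAA or to the CCAAT box, on either strand. *Psmb9* lies at chr17:34187281-34187580 on the minus strand, *Psme1* at chr14:55578244-55578543 on the plus strand and *Psmg4* at chr13:34162714-34163013 on the plus strand.
Psmb9: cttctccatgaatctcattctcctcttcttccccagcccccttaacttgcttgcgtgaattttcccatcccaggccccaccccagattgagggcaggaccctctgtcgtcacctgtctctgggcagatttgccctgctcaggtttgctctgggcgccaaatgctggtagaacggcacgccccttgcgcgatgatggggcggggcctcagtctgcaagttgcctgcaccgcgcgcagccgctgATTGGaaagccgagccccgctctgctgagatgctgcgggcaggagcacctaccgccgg
Psme1: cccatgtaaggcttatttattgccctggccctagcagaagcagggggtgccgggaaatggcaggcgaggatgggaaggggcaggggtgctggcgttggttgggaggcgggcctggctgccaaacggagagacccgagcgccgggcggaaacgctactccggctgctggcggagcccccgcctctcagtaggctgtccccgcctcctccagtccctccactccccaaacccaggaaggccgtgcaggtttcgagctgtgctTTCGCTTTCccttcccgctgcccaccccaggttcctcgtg
Psmg4: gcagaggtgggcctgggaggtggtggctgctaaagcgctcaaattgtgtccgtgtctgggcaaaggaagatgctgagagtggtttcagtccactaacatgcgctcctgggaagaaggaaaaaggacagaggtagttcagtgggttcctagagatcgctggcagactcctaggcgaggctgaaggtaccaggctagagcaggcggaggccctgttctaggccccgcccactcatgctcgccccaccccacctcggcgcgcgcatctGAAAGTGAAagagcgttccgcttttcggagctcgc
The *Psmb9* window shares 275 bases with the window of *Tap1*, the peptide transporter gene read in the opposite direction. Its capitals are a CCAAT box on the other strand, and it holds no interferon response core. *Psme1* carries the core on the other strand as TTCGCTTTC, starting 10 bases after the gene's start, and *Psmg4* carries it on its own strand as GAAAGTGAA, starting 15 bases after it.

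Windows outside chromosome 18 were matched for 42 members. The interferon response core was in 7 of them (16.7%), namely *Psmb3*, *Psmb4*, *Psmc2*, *Psmd4*, *Psmd9*, *Psme1* and *Psmg4*, against 9.76% of all 27025 genes with a window. None of the windows of *Psmb8*, *Psmb9* or *Psmb5* to *Psmb7* held these letters, and *Psmb10* had no window. The other motifs were searched on both strands in the same way. An antioxidant response core, TGANNNNGC, was in 25 member windows (59.5%) against 45.0% of all genes, and a GC box, GGGCGG, in 24 (57.1%) against 38.2%. A CCAAT box was in 16 (38.1%) against 41.1%. An NF-kB core, GGANNTTCC, was in 6 (14.3%) against 4.86%, and the cyclic AMP response element TGACGTCA in 0 against 2.03%. Such matches describe the letters and are not binding sites. Of the members with the interferon response core, *Psme1* and *Psmg4* were lower in the pro-B library in the log2 differences given further on, at -0.78 and -0.69. *Psmb3*, *Psmb4*, *Psmc2*, *Psmd4* and *Psmd9* were higher, from 0.06 to 0.43, in the FPKM as deposited. A link between letters and differences was not tested. Matches to different motifs may overlap, as in *Psmg4*, where the antioxidant response core TGAAAGAGC begins inside GAAAGTGAA.

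Before the values of the members, the labels were checked against the targeted genes and cell markers. *Ebf1* had an FPKM of 64.0 in its own null library (Cuffdiff's 95% interval 2.78 to 149) and of 273 in the pro-B library (8.50 to 729), and *Rag2* had 34.5 in the pre-pro-B library (2.88 to 66.7) and 22.9 in its own null library (1.75 to 44.3). Neither was at 0, and an FPKM over a whole transcript does not show whether the deleted part was read. All 5 pro-B markers (*Pax5*, *Vpreb1*, *Igll1*, *Ebf1*, *Cd79a*) were higher in the pro-B library, with a summed FPKM of 66.9 in the pre-pro-B and 1779.7 in the pro-B library. Of the first sum 64.0 was *Ebf1*, itself a targeted gene and so no separate check, and the others were at most 1.17 there. All 3 progenitor markers were higher in the pre-pro-B library, with sums of 944 and 2.82. Markers of 8 stromal genes summed to 20.1 and 16.8, with 7 of 8 higher in the pro-B library. *Pdgfrb* alone was 15.9 of the first sum, and the other 7 summed to 4.21 and 16.4. Markers of other blood cells were mostly higher in the pre-pro-B library: 5 myeloid genes summed to 61.0 and 6.52, with 1 at 0 in pre-pro-B and 3 at 0 in the pro-B library, 3 T cell genes to 38.7 and 3.10, of which *Lck* alone was 38.0 of the first sum and the defining *Cd3e* and *Cd3d* were under 1 in both libraries, and 3 dendritic cell genes, one of them the progenitor marker *Flt3*, to 366 and 1.45. The part of these cells in the results was not tested, and fewer cells of a type and less RNA per cell cannot be told apart in bulk RNA.

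Proteasome transcripts were abundant in both libraries and a little higher in the pro-B library. The summed FPKM of the 50 members was 2974 in the pre-pro-B and 3687 in the pro-B library, which was 0.958% and 1.09% of the FPKM of all genes. The genes of the constitutive core and of the regulatory particle, 31 in all, summed to 2274 and 3080.1, a 1.35-fold difference. On the log2(FPKM + 1) scale, where the pseudocount makes differences of low genes smaller, the median difference of pro-B minus pre-pro-B was 0.23 over the 48 members and -0.13 over all genes. A difference above 0 was found for 35 of 48 members, 72.9%, against 43.1% of all genes, and 39 of 48 lay above the median of all genes. The all-gene median moved to -0.24 when the FPKM of each library were scaled to the same sum (TPM) and to -0.0151 when scaled by the median ratio of genes above 0 in both libraries, and the members' median then lay 0.35 and 0.36 above it, as it lay 0.36 above it in the FPKM as deposited. The number above the all-gene median was 39 of 48 under both scalings. Scaling shifts the members and that median nearly alike, so their distance from it could hardly change and is no check. The number above 0, which could change, was 30 with TPM and 39 with the median ratio.

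**Figure D1:**
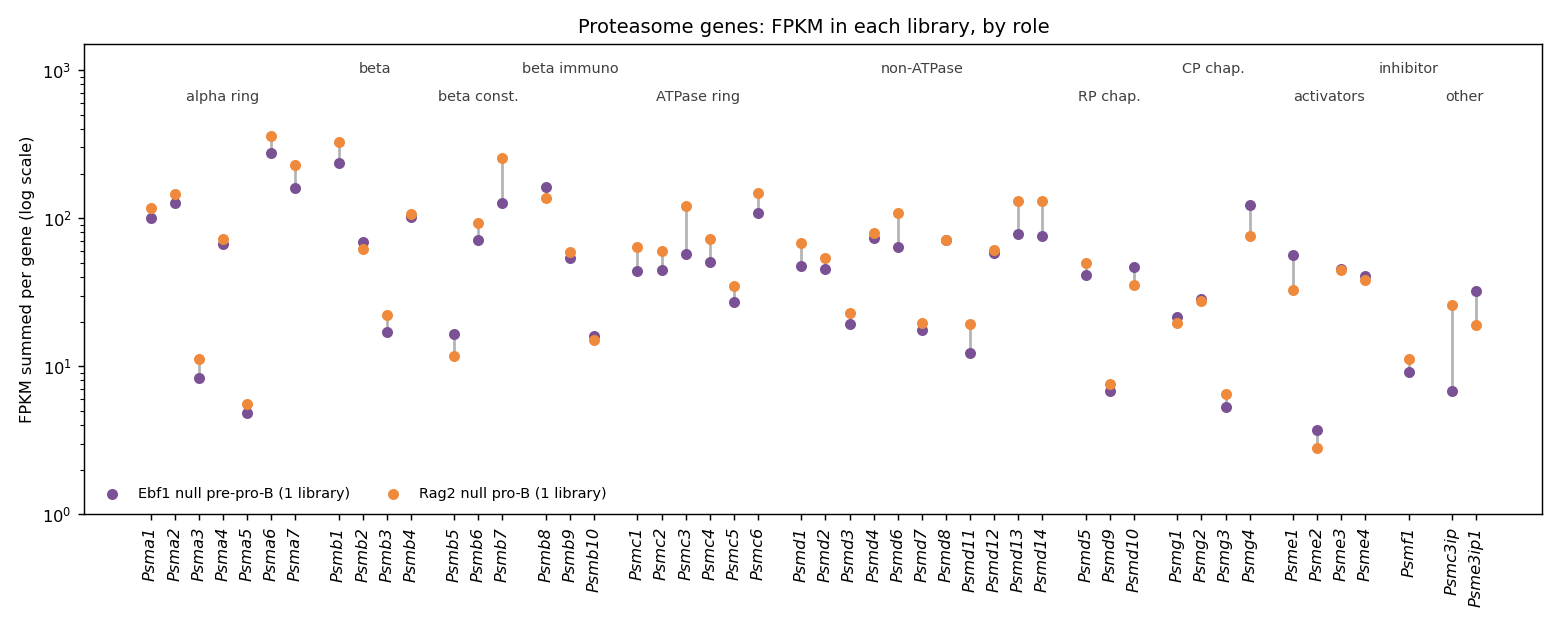
FPKM of the 48 members that passed the filter, on a log axis and ordered by role, with 1 point for the pre-pro-B library and 1 for the pro-B library (RP and CP chap. are chaperones of the regulatory and core particle). Levels ran from 3.68 for *Psme2* to 277 for *Psma6* in the pre-pro-B library, and the points of a gene lay close together beside this range.

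Single members differed little. At least 2-fold higher in the pro-B library were 3 of 48 members (6.25%), against 12.2% of all genes, and at least 2-fold lower were 0 of 48, against 17.9%. At 1.5-fold, 7 members were higher (14.6%), against 20.0% of all genes, and 3 were lower (6.25%), against 28.4%. In the FPKM as deposited, the share of members past each fold was below the share of all genes in either direction. With TPM 1 member was 2-fold higher, and with the median ratio 12 of 48 (25.0%) were 1.5-fold higher, against 23.1% of all genes, so that this share was no longer below that of all genes. Of the 51 member transcripts that belonged to genes passing the filter, 0 had Cuffdiff 95% intervals that did not overlap between the libraries, against 4.47% of all 12012 transcripts, so no member transcript differed beyond the intervals of its estimates. The order of levels was much alike in both libraries. Over the 46 subunit, chaperone, activator and inhibitor genes the log2 levels had a Pearson's r of 0.97 and a Spearman's rho of 0.96, and over all 10131 genes r was 0.69 and rho 0.73. Both are descriptions across genes, which share a library and are not independent. The members had a median FPKM of 47.0 in the pre-pro-B and 59.9 in the pro-B library, against 13.8 and 12.5 for all genes. All genes were not matched to the members for level, so these shares and correlations do not show a trait particular to proteasome genes.

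The catalytic subunits were next set side by side, since *Psmb8*, *Psmb9* and *Psmb10* take the places of *Psmb5*, *Psmb6* and *Psmb7* in the ring. At the chymotrypsin-like position the immunoproteasome form was the more abundant in both libraries, at the caspase-like position the forms were near each other, and at the trypsin-like position the constitutive form was the more abundant. On mm9 the constitutive genes lie at chr14:55232644-55236851 (*Psmb5*), chr11:70338869-70341360 (*Psmb6*) and chr2:38443556-38499607 (*Psmb7*), and *Psmb10* at chr8:108459628-108462292. *Psmb8* had an FPKM of 162 in the pre-pro-B library (interval 6.43 to 352) and of 136 in the pro-B library (5.65 to 299). *Psmb5*, its constitutive counterpart, had 16.6 (0.318 to 37.9) and 11.7 (0.169 to 27.6). *Psmb8* was 90.7% of the pair in the pre-pro-B and 92.1% in the pro-B library, a ratio of 9.75 and 11.6. This ratio rests on a gene whose reads could be shared, because 99.9% of the *Psmb5* transcript matched a near-identical copy elsewhere in mm9, at 99.0% identity, and the FPKM of *Psmb5* is therefore uncertain.

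For *Psmb9* the FPKM was 53.8 in the pre-pro-B library (3.58 to 106) and 59.5 in the pro-B library (4.26 to 115), and for *Psmb6* it was 71.2 (12.2 to 130) and 92.4 (16.6 to 168). *Psmb9* made up 43.0% and 39.2% of this pair. *Psmb10* was the lowest of the immunoproteasome genes in both libraries, at 16.1 (0.560 to 41.2) and 15.1 (0.498 to 35.9). *Psmb7* had 126 in the pre-pro-B library (27.4 to 224) and 253 in the pro-B library (57.4 to 449). *Psmb10* was thus 11.3% of its pair in the pre-pro-B and 5.61% in the pro-B library, and the ratio was 2.15-fold lower in the pro-B library. None of *Psmb6*, *Psmb7*, *Psmb9* and *Psmb10* had a near-identical copy. The difference in this pair lay in *Psmb7*, with a log2 difference of 1.01, while that of *Psmb10* was -0.0879.

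As sums, the 3 immunoproteasome genes had an FPKM of 232 in the pre-pro-B and 211 in the pro-B library, and their 3 constitutive counterparts 214 and 357. The immunoproteasome share was 52.0% and 37.1%. This pooled share follows the most abundant genes, and *Psmb7* alone was 126 and 253 of the constitutive sums. By pair, the share was 90.7% and 92.1% for *Psmb8*, 43.0% and 39.2% for *Psmb9* and 11.3% and 5.61% for *Psmb10*, so the positions did not all differ alike. The log2 differences of *Psmb8*, *Psmb9* and *Psmb10* were -0.25, 0.14 and -0.0879, and with the libraries scaled by the median ratio that of *Psmb10* was 0.0254. A ratio within a library does not move with the scaling between libraries, and the intervals of all 6 genes overlapped between the libraries.

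**Figure D2:**
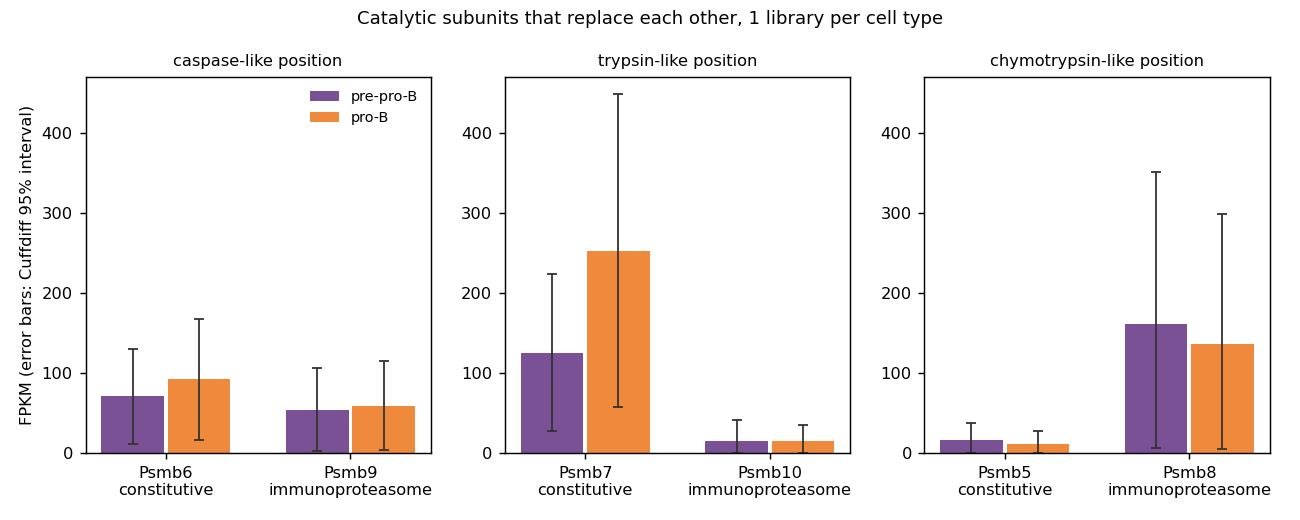
FPKM of the catalytic subunits in 3 panels, one for each position in the ring, with the constitutive gene on the left and the immunoproteasome gene on the right; bars are the pre-pro-B and pro-B libraries and error bars Cuffdiff's 95% intervals. *Psmb7* at 253 in the pro-B library is the highest bar, *Psmb8* exceeds *Psmb5* in both libraries, and all pairs of error bars overlap.

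*Psmb8* and *Psmb9* lie in the MHC region, in one stretch with the transporter genes. On mm9 *Psmb9* is at chr17:34318932-34324697 on the minus strand, *Tap1* at chr17:34324498-34334170, *Psmb8* at chr17:34334666-34338399 and *Tap2* at chr17:34340472-34353266, all 3 on the plus strand. The ends of *Psmb9* and *Tap1* overlap, and the strand-specific libraries can tell them apart. *Tap1* had an FPKM of 42.5 and 44.1 and was, like *Psmb9* and *Psmb8*, within 1.5-fold. *Tap2* had 57.0 in the pre-pro-B and 24.7 in the pro-B library, a log2 difference of -1.18. The 4 neighbours thus did not all differ alike.

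The 7 alpha ring genes, whose products form the gate of the core, all had a log2 difference above 0, from 0.10 for *Psma4* to 0.53 for *Psma7* (median 0.24), and none passed 1.5-fold, except that *Psma7* did with the median ratio, at 0.65. With TPM 6 of 7 were above 0, and 7 of 7 lay above the all-gene median, a place that scaling can hardly change. The highest was *Psma6*, with an FPKM of 277 in the pre-pro-B and 359.9 in the pro-B library, and the lowest was *Psma5*, with 4.84 and 5.52. Products of these genes are present once per ring, yet the levels of the RNAs spanned 57.1-fold in the pre-pro-B and 65.2-fold in the pro-B library. The lowest levels were those of genes with near-identical copies, *Psma5* and *Psma3*, which are uncertain, and over the 4 alpha genes without a copy the span was 2.78-fold and 3.07-fold. The 4 non-catalytic beta genes ran from *Psmb3*, at 17.1 and 22.1, to *Psmb1*, at 237 and 329. Of these *Psmb1*, *Psmb3* and *Psmb4* were above 0 and *Psmb2* was at -0.15. With TPM 2 of 4 were above 0, and *Psmb4* was at -0.0642.

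The ATPase ring unfolds the substrate. All 6 genes were above 0, under each scaling, with a median log2 difference of 0.47 and a summed FPKM of 331 in the pre-pro-B and 499 in the pro-B library, 1.51-fold. *Psmc3* was the only one past 1.5-fold in the FPKM as deposited and with TPM, while with the median ratio *Psmc1*, at 0.66, and *Psmc4*, at 0.61, were past it too. *Psmc3* had an FPKM of 56.9 (3.41 to 190) and 121 (7.73 to 377) and, as deposited, a log2 difference of 1.07. The other 5 lay between 0.37 for *Psmc5* and 0.54 for *Psmc1*. The lowest level was that of *Psmc5*, at 26.9 and 35.0, and the highest that of *Psmc6*, at 108 and 147. The range over the ring was 4.01-fold in the pre-pro-B and 4.21-fold in the pro-B library.

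The 11 non-ATPase genes were all above 0 with a median of 0.23, although *Psmd8*, at 71.6 in both libraries, was above it by less than 0.01 at 0.00025. With TPM 8 of 11 were above 0, and 11 of 11 were above the all-gene median, a place that scaling can hardly change. Past 1.5-fold were 4 of the 11, all genes of the lid and higher in the pro-B library, against 20.0% of all genes. With TPM it was 3 of 11, against 17.3%, and with the median ratio 5 of 11, against 23.1%. *Psmd14*, the protease that takes ubiquitin chains off the substrate, had an FPKM of 76.1 (10.9 to 142) and 131 (18.7 to 243). *Psmd6* had 63.5 (11.3 to 116) and 108 (24.2 to 192), and *Psmd13* 78.6 (2.86 to 175) and 129.9 (5.16 to 300.2). *Psmd11*, a scaffold subunit, had 12.4 (0.567 to 31.3) and 19.2 (0.453 to 47.2), the lowest level of the group, and 92.3% of its transcript matched elsewhere in the genome. The log2 differences were 0.77, 0.76, 0.72 and 0.60 in that order, and with TPM *Psmd11* was no longer past 1.5-fold, while with the median ratio *Psmd1* was past it, at 0.62. The other 7 genes, among them the ubiquitin receptor *Psmd4* at 73.0 and 78.7 and the large scaffold subunits *Psmd1* and *Psmd2*, lay between 0.00025 and 0.50.

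**Figure D3:**
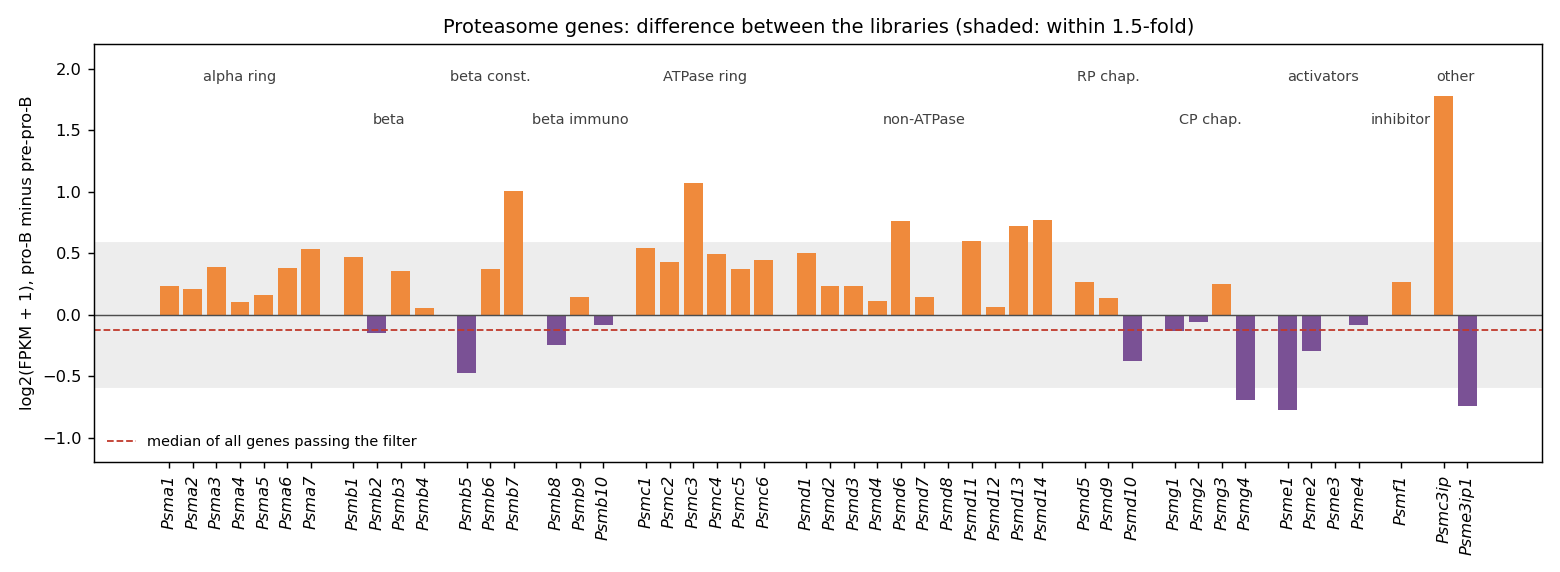
Bars give the difference in log2(FPKM + 1), pro-B minus pre-pro-B, for the 48 members by role, with differences within 1.5-fold shaded and the median of all genes, -0.13, as a dashed line. All 17 bars of the ATPase ring and the non-ATPase genes are at or above 0 and all 4 activators are below 0 in the FPKM as deposited (14 of 17 above 0 with TPM, 2 of 4 activators above 0 with the median ratio and *Psme2* at 0.52 with its most abundant transcript), and *Psmc3ip*, at 1.78, stands highest.

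Of the 31 genes of the constitutive core and regulatory particle, 29 had a difference above 0 in the FPKM as deposited. The genes that help build or cap the proteasome lay both above and below 0. The activators *Psme1* to *Psme4*, which bind the ends of the core in place of the regulatory particle, all had a difference below 0, with a median of -0.19 and a summed FPKM of 146 in the pre-pro-B and 118 in the pro-B library. With the median ratio 2 of 4 were above 0, and with the most abundant transcript alone *Psme2* was at 0.52. *Psme1*, an interferon-responsive activator subunit, had 56.5 (8.29 to 232) and 32.5 (2.36 to 63.0), the only activator past 1.5-fold, with a log2 difference of -0.78. Its partner *Psme2* lies beside it on chromosome 14 (mm9 chr14:56196960-56200366 and chr14:56206278-56209950). *Psme2* was listed at 3.68 and 2.80, so *Psme1* exceeded it 15.4-fold and 11.6-fold, but 90.1% of the *Psme2* transcript matched elsewhere and its level is uncertain. Its transcripts went in opposite directions. NM_001029855 had 2.05 (0 to 6.47) and 0.0214 (0 to 0.0261), and NM_011190 had 1.63 (0 to 5.30) and 2.78 (0 to 7.32). *Psme3*, a nuclear activator, was at 45.4 and 44.9, and *Psme4* at 40.5 and 38.1.

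The chaperones of core assembly *Psmg1* to *Psmg4* summed to 179 in the pre-pro-B and 129 in the pro-B library. *Psmg4* held most of the difference, with 124 and 76.2 and a log2 difference of -0.69. Its transcript NM_001101430 had 85.0 (1.67 to 194) and 68.5 (2.91 to 148), and NM_001110515 had 38.5 (0 to 117) and 7.63 (0 to 36.5). Both transcripts were lower in the pro-B library, with overlapping intervals. *Psmg4* was within 1.5-fold with the median ratio, at -0.57, and with its most abundant transcript alone, at -0.31. *Psmg1* was at 21.5 and 19.5, *Psmg2* at 28.6 and 27.4 and *Psmg3* at 5.27 and 6.47. The chaperones of the regulatory particle were within 1.5-fold as well. *Psmd5* had 41.1 and 49.6, *Psmd9* 6.81 and 7.59, and *Psmd10* 46.4 and 35.5. For *Psmd10* the transcripts again went in opposite directions, with NM_016883 at 43.7 and 30.6 and NM_001164177 at 2.67 and 4.92. The inhibitor *Psmf1* had 9.14 and 11.2.

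The members that carry the name but are not subunits differed more than most. *Psmc3ip* had an FPKM of 6.81 (0 to 20.8) in the pre-pro-B and 25.8 (0.501 to 57.6) in the pro-B library, the largest difference of the 48 at 1.78. *Psme3ip1* had 32.4 (2.92 to 84.3) and 19.0 (0.483 to 49.7), at -0.74. Without them, 2 of 46 members were at least 2-fold higher, *Psmb7* and *Psmc3*, at 1.01 and 1.07, and with TPM both were under 2-fold, at 0.88 and 0.95.

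Members with a near-identical copy in the genome had lower levels than the others. A copy was counted where at least 50% of a transcript matched another place in mm9 at an identity of at least 95%. This held for 8 of 48 members, *Psma3*, *Psma4*, *Psma5*, *Psmb3*, *Psmb5*, *Psmd2*, *Psmd11* and *Psme2*. Their median FPKM was 14.5 in the pre-pro-B and 15.4 in the pro-B library, against 55.2 and 62.9 for the other 40. Their median log2 difference was 0.19 with 6 of 8 above 0, against 0.23 with 29 of 40. The spread of the alpha ring levels, as a coefficient of variation, was 89.2% and 94.0%, and 47.2% and 51.0% without *Psma3*, *Psma4* and *Psma5*. For the constitutive beta ring it was 83.3% and 96.1%, and 57.2% and 68.9% without *Psmb3* and *Psmb5*. It was 50.3% and 50.6% for the ATPase ring, where no gene had a copy although 47.8% of the *Psmc1* transcript matched elsewhere, and 41.3% and 54.7% for the chaperonin, another complex of fixed makeup. The authors' correction for reads with several alignments splits reads between such places, and its part in these levels was not tested.

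**Figure D4:**
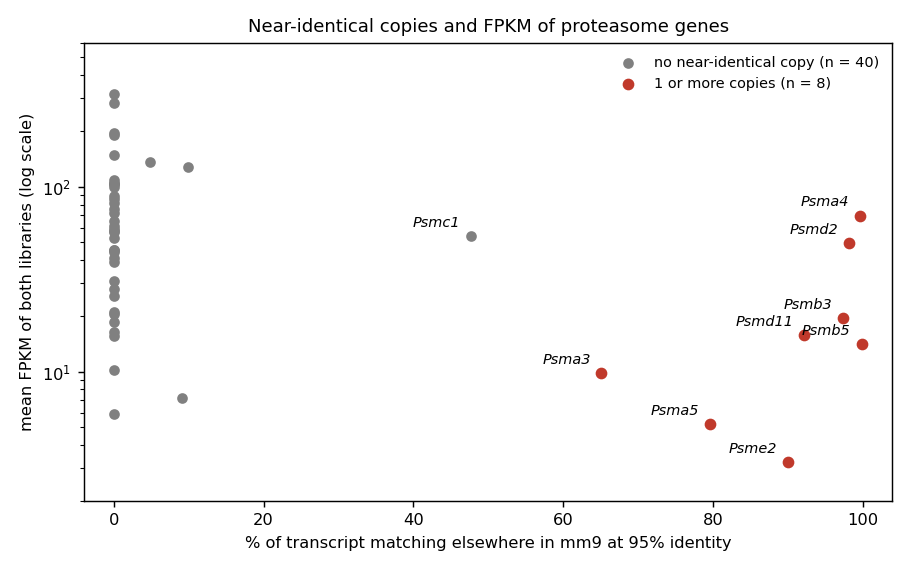
Mean FPKM of both libraries, on a log axis, against the percent of a member's transcript that matches elsewhere in mm9, for 48 members. The 8 members with a copy, in red, have means of up to 69.8, while the other 40, in grey, reach 318.

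Genes of the pathway outside the name rule were taken from lists. Of 8 subunits and factors under other names, 6 were above 0, with a median of 0.26. *Ecpas*, which holds the particles together, was at 46.4 and 85.8 and *Txnl1*, a thioredoxin of the regulatory particle, at 82.5 and 139, and both were past 1.5-fold. The ubiquitin receptor *Adrm1* was at 4.36 and 4.53 and the core maturation factor *Pomp* at 171 and 194. Of 4 genes of ubiquitin and its activation, 0 passed 1.5-fold (median 0.17). Of 11 shuttles and p97 cofactors, 0 passed 2-fold in the FPKM as deposited, 2 were past 1.5-fold higher and 2 lower (median 0.14). With TPM 2 of the 11 were at least 2-fold lower, against 19.9% of all genes. *Ddi2*, a protease that processes *Nfe2l1*, was at 22.4 and 10.8, with a log2 difference of -0.99. The 8 chaperonin genes had a median of -0.0372 with 0 past 2-fold, and of 0.0827 with the median ratio.

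The lists of regulators, MHC class I processing and interferon response had medians below that of all genes. Of 9 regulators of proteasome genes, 1 was at least 2-fold higher and 2 were lower, shares near the 12.2% and 17.9% of all genes, with a median of -0.36, which was -0.0913 with the most abundant transcript of each gene, where the median of all genes was -0.12. *Nfyb*, a subunit of the CCAAT-binding factor, was at 43.5 and 126. The interferon regulatory factors *Irf1* and *Irf8*, which can induce immunoproteasome genes, were at 30.0 and 9.54 and at 66.9 and 27.0. *Nlrc5*, also of this list, went the other way, at 6.67 and 11.3, and was past 1.5-fold higher except with TPM. *Nfe2l1*, which induces proteasome genes when activity is low, was at 13.7 and 8.05, but with its most abundant transcript alone the log2 difference was 0.13. Of 9 genes of MHC class I peptide processing, 2 were at least 2-fold lower and 0 higher (median -0.64), namely *Tap2* and *Tapbpl*, a tapasin-like chaperone, at 5.01 and 1.86, a share also near that of all genes. Past 1.5-fold lower were 5 of the 9, *Tap2*, *Tapbpl*, *Erap1*, *Calr* and *Canx*, against 28.4% of all genes. With the median ratio *Calr* and *Canx* were no longer past it. Only *B2m*, the light chain of MHC class I, was past 1.5-fold higher, at 1687 and 2969. It held most of the summed FPKM of the list, which was 2298 and 3369.5. Of 12 interferon response genes found, 7 passed the filter. In the FPKM as deposited 4 of these were at least 2-fold lower and 0 higher, against 17.9% and 12.2% of all genes. The filter helped make this count, since of the lower genes only *Irf9* and *Bst2* were among the 5 with a pro-B FPKM of at least 1. The median was -1.64 over the 7 that passed, but 2 of them, *Irf7* and *Usp18*, passed only through the pre-pro-B library, where they were high. It was -0.40 over all 12 with no filter and -0.36 with a pseudocount of 10. *Irf7* was at 15.9 and 0.326, *Bst2* at 39.3 and 2.59, *Irf9* at 45.7 and 9.33 and *Usp18* at 3.31 and 0.386. All 4 were higher in the pre-pro-B library. *Gbp2*, also among the 7, went the other way, at 0.983 and 2.80, and was past 1.5-fold higher, with a log2 difference of 0.94. It was past 2-fold higher with the median ratio, at 1.01, and with a pseudocount of 0.1, at 1.42. The dendritic cell marker *Siglech* was at 54.3 and 0.236 in the same libraries, and its cells' part in these lists was not tested. Beside these values, *Psmb8*, *Psmb9* and *Psmb10* lay between -0.25 and 0.14.

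**Figure D5:**
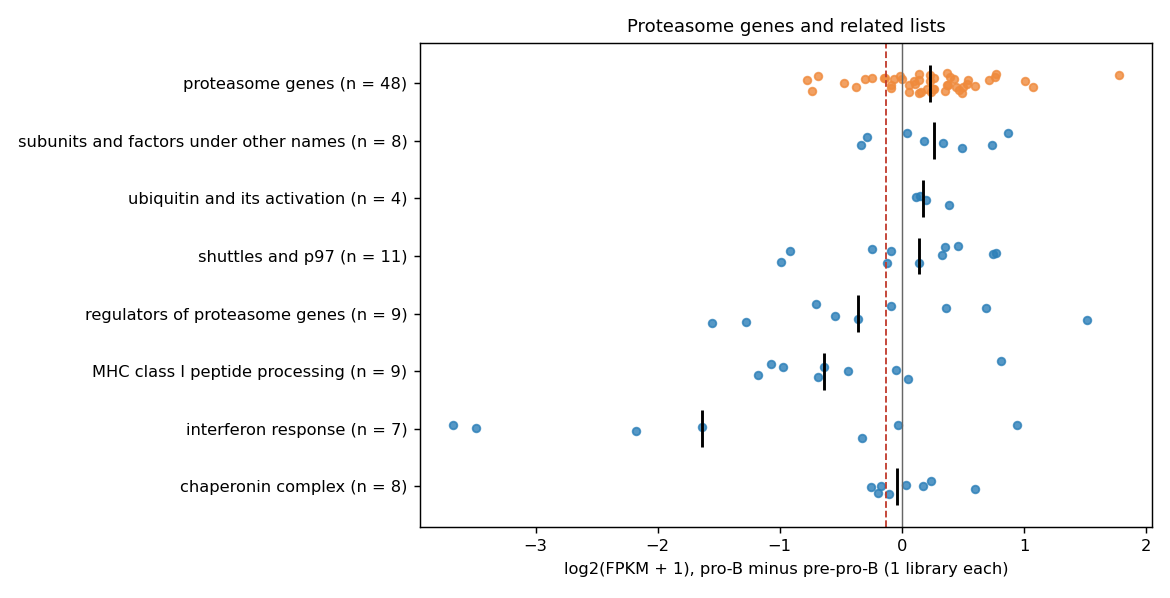
Each point is the difference in log2(FPKM + 1), pro-B minus pre-pro-B, of a gene that passed the filter, with black lines for the median of each list and a dashed line for the median of all genes, -0.13. The proteasome genes have a median of 0.23 and the interferon response genes that passed of -1.64, or of -0.40 over all 12 with no filter.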

How the data were processed

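RNA-seq was measured in 1 library of *Ebf1* -/- pre-pro-B cells and 1 library of *Rag2* -/- pro-B cells. The authors trimmed the single-end reads, aligned them to mm9 with TopHat and estimated the deposited FPKM of each RefSeq transcript with Cuffdiff 2.1.1 (version from the submitters' processing notes), with correction for reads with several alignments, bias correction and no scaling between libraries. Each deposited FPKM has a 95% confidence interval from Cuffdiff's model. A further table repeats the FPKM beside the authors' log2 fold changes, test statistics, p-values and q-values, which were not used. FPKM carry no counts, so the reads behind a value are unknown beyond the stated depth of about 90000000 reads per sample, and the intervals stand in for precision.

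Of 26968 protein-coding RefSeq entries with 26580 accessions, a RefSeq table of GRCm38.p6 named 26173 and was used for names and promoter sequences only. The other 407 were left out. FPKM were summed per gene (20250 genes). Differences are of log2(FPKM + 1) over genes with a mean FPKM of at least 1, and calls are at 2-fold and 1.5-fold, with no test. Positions are from a GENCODE annotation of mm9. Copies were searched with BLAST 2.17.0. Values were computed with pandas 2.3.3 and numpy 2.4.6 in Python 3.11.15, correlations with scipy 1.17.1 and figures with matplotlib 3.10.9, and the computations were tested on simulated data. *Psme2b*, *Paaf1* and *Mx1* were not matched and not analysed here, and some genes of the marker and pathway lists are not reported here and are in none of the counts and sums of those lists. The members, gene lists and comparisons were chosen with earlier results of these data known. Named were the catalytic subunits, activators, chaperones and inhibitor, members past 1.5-fold, the highest and lowest of each role, members with transcripts in opposite directions and, of the other lists, up to 6 genes past 2-fold with *Adrm1*, *Pomp*, *Nfe2l1*, *Tap1* and *Tap2*. *Ecpas*, *Txnl1*, *B2m*, *Erap1*, *Calr*, *Canx*, *Nlrc5*, *Ddi2*, *Gbp2*, *Siglech*, *Pdgfrb* and *Lck* were chosen after their values were seen. Alternatives were other pseudocounts, filters, scalings (TPM and the median ratio), the most abundant transcript, the other deposited table and 1 entry per accession.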

Additional observations from a re-analysis of the deposited data

Results flagged for a closer look

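The tables also hold a non-coding RefSeq transcript of *Psmd2*, NR_027485, which the rule on protein-coding transcripts left out of the sums. It was listed with an FPKM of 3.12 in the pre-pro-B library (Cuffdiff's 95% interval 0 to 14.3) and 1.28 in the pro-B library (0 to 7.15). With no control library, both values were set against 0.0109, the FPKM that 3 reads of about 90000000 would give over its 3053 bases, and both were above it. The intervals reach 0 in both libraries and overlap each other.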

How the results depend on the processing

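No paired analysis was possible because each cell type has 1 library, and no library could be left out. The count of members at least 2-fold higher was 1 with a pseudocount of 10 and 1 with TPM, and the count 1.5-fold higher was 12 with the median ratio. The members' median log2 difference was 0.11 with TPM and 0.35 with the median ratio, which shift all genes alike. The medians of the other lists moved as follows. With TPM they were 0.14 for subunits under other names, 0.0624 for ubiquitin, 0.0319 for shuttles, -0.48 for regulators, -0.76 for MHC class I processing and -0.16 for the chaperonin. With the median ratio they were 0.38, 0.28, 0.26, -0.25 and -0.52 in that order, and 0.0827 for the chaperonin, which changed sign. With the most abundant transcript of each gene, 5 of the members and list genes changed sign (*Nfe2l1* at 0.13, *Psme2* at 0.52, *Uba1* at -0.30, *Ubqln1* at 0.29 and *Usp14* at 0.25) and *Nfe2l1* and *Psmg4*, at -0.31, were no longer past 1.5-fold, while shuttles were at 0.29 and regulators at -0.0913, because fewer transcripts enter a gene. With a pseudocount of 10 regulators were at -0.24, MHC class I processing at -0.34 and interferon response at -0.36, and with a pseudocount of 0.1 interferon response was at -2.28. It was at -0.40 with no filter and at -2.18 with a mean FPKM of at least 5, where MHC class I processing was at -0.54 and shuttles at 0.0257. Alternatives added after seeing the data left out the members with a near-identical copy, which changed the coefficients of variation to 47.2% and 51.0% for the alpha ring, 57.2% and 68.9% for the constitutive beta ring and 41.8% and 53.2% for the non-ATPase genes, or left out *Psmc3ip* and *Psme3ip1*. The other deposited table and 1 entry per accession moved none of the counts, medians, ratios or spreads past the tolerance. It was 0.1 on the log2 scale for medians, 1.5-fold for counts and a relative shift of 0.1 for ratios and spreads. For the members these alternatives could not move anything and are no check. No member transcript differed in FPKM between the tables, and no member accession had more than 1 entry. The catalytic pair ratios were run only with the most abundant transcript, the other table and 1 entry per accession. They could not move there, because each of these genes has 1 entry and the same FPKM in both tables. The cause of each move was not tested where none is given. Without counts, depth cannot be set against single differences, and low members such as *Psme2* and *Psma5* have intervals that reach or approach 0.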
